A study of Mus musculus with 12 samples.

Results

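Chromatin accessibility around the 8 genes of the AP-1 transcription factor family, Fos, Fosb, Fosl1, Fosl2, Jun, Junb, Jund and Atf3, was measured in mouse hepatocytes by ATAC-seq, in which a transposase places sequencing adapters into open DNA. The members were the peak regions that overlapped the span of one of these genes or lay within 30 kb of it, joined over 12 libraries, and they numbered 144 of 291982 regions in all. Regions within 1 kb of the gene (34, called gene-proximal) were kept apart from those farther out (110, called distal). A region was tested when it was kept in at least 3 of the 12 libraries, which left 97 regions (27 gene-proximal and 70 distal) among 138620 tested genome-wide. Each mouse gave 1 library, with 3 mice in each of 4 groups. The control mice (FBXL5F/F) carried floxed Fbxl5 alleles and no Cre, and the deleted mice (Alb-Cre/FBXL5F/F) carried the same alleles with Cre under the albumin promoter, which is active in hepatocytes. Fbxl5 encodes a ubiquitin ligase subunit that removes iron regulatory proteins. For 2 weeks, mice of each genotype received either the standard diet or one containing 0.1% DDC, a compound that causes porphyrin build-up and cholestasis. The hepatocytes were separated by collagenase perfusion, and such a preparation can hold other liver cells. In these pooled cells, fewer cells with an open site and less opening per cell cannot be told apart.

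AP-1 is a dimer of a JUN protein with a FOS, ATF or MAF protein that binds the sequence TGANTCA or the related cAMP response element TGACGTCA. JUN kinases and ERK kinases act on its subunits, and many of the genes are immediate early genes, whose transcription rises within minutes of growth signals, injury or stress. In liver, Jun is known for its part in hepatocyte survival and regeneration, and the early response genes are also known to respond to tissue dissociation.

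A start site was listed for 7 of the 8 genes (all but Fosl1), and 6 of these sites lay in a tested region. The promoter sequences of 4 of these 6 genes are shown because they hold the core of the cAMP response element. They were taken from RefSeq (build GRCm38.p6, the assembly of mm10) and run from 250 bases before to 50 bases after the start site, whose base is position 0. Capitals mark TGACG, or CGTCA where the match is on the other strand.
Fos promoter, chr12:85473640-85473939, forward strand: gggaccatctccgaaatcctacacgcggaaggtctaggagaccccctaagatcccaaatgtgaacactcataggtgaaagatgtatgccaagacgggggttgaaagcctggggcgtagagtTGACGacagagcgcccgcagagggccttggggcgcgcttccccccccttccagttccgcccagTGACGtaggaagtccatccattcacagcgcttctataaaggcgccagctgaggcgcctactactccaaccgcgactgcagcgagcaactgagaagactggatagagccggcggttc
Fosb promoter, chr7:19309996-19310295, reverse strand: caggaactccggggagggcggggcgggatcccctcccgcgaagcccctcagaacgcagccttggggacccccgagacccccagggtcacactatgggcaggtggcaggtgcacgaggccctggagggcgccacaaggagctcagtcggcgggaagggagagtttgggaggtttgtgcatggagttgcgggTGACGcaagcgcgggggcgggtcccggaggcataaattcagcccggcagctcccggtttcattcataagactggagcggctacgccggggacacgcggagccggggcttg
Junb promoter, chr8:84978699-84978998, reverse strand: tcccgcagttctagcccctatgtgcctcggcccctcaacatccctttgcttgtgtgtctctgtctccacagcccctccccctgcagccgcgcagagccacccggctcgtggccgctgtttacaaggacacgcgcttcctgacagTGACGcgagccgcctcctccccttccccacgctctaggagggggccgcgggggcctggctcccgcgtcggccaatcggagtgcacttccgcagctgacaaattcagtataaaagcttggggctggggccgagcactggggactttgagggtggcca
Atf3 promoter, chr1:191183284-191183583, reverse strand: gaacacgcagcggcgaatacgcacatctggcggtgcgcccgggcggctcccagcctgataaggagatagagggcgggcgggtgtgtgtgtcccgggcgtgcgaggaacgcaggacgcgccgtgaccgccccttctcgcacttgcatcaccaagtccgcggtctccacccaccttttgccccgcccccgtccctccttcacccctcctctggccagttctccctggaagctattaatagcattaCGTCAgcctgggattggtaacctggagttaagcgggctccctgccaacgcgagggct

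The table of promoters held 7 of the 8 genes (all but Fosl1). TGACG, searched on both strands, was present in 4 of the 7 member promoters and in 20.8% of 32851 mouse promoters of the same length. In Fos it lay at −129 to −125 and at −66 to −62, in Fosb at −60 to −56, in Junb at −106 to −102 and in Atf3 at −7 to −3. The full element TGACGTCA (1.79% of all promoters), the AP-1 motif TGANTCA (7.81%) and the CArG box bound by serum response factor (1.63%) had no match in the 7 windows. TATAAA, found in 13.6% of all promoters, was present in Fos and Junb, and the motif of MEF2 factors, found in 0.557%, in Jun (−33 to −24) and Atf3 (−22 to −13). TGACG is contained in TGACGTCA, so these searches overlap. A match is a string of letters in this window and does not show that a factor was bound.

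Values are given as percentiles within a library. The strongest kept peak by fold enrichment (peak height over the background of the same library) has percentile 100, and a region with no kept peak has 0. The kept peaks are the strongest 137034 of each library, so a region at 0 may still hold a weaker peak in the deposited list. Differences are in log2 of a fold enrichment that was made equal in distribution over libraries, and a region without a kept peak takes the lowest value, so differences against such libraries rest in part on that value. Differences are DDC minus standard unless another is named, with the standard error (SE) of the limma fit, and every adjusted p is the Benjamini-Hochberg value of that fit over all 138620 regions (limma, two-sided). A region is called at an adjusted p under 0.05.

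The libraries held 137034 to 262080 peaks. The 2 longest lists (262080 and 260622 peaks) were those of deleted mice 1 and 3 on the standard diet, which also had fewer peaks with a −log10 q of 5 or more. Over all libraries such stronger peaks numbered 46949 to 70517 on the standard diet and 70044 to 86745 on DDC, and the ranges overlapped only in that the lowest DDC library lay below the highest standard-diet library. With this number as a covariate, an alternative chosen after seeing the data, 1 of the 15 member regions called between diets remained called, and all 15 kept their direction. Since the number nearly separated the diets, its part and that of diet cannot be told apart by such a fit. Without the 2 longest libraries, 6 remained called. Regions at marker genes of other cell types are read against all tested regions, of which 8.12% were higher and 4.87% lower on DDC. Of 39 regions at 5 macrophage genes 8 were higher (20.5%) and 0 lower, and the summed percentile of the strongest gene-proximal regions was 127 to 162 in controls and 123 to 235 in deleted mice on the standard diet, against 199.6 to 226 and 189 to 208 on DDC. At 3 neutrophil genes 2 of 20 regions were higher (10.0%) and 0 lower, with sums of 0 to 24.3 (control) and 0 in each deleted mouse on the standard diet, and 43.4 to 73.4 (control) and 50.9 to 68.6 (deleted) on DDC. Of 46 regions at 5 stellate cell genes 8 were higher (17.4%) and 2 lower (4.35%), with sums of 317 to 324 (control) and 314 to 326 (deleted) on the standard diet and 314 to 319 (control) and 299.5 to 303 (deleted) on DDC. Of 145 regions at 7 hepatocyte genes 2 were higher (1.38%) and 6 lower (4.14%), both below the shares of all regions, with sums of 447 to 473 (control) and 467 to 519 (deleted) on the standard diet and 387 to 450.4 (control) and 424 to 465 (deleted) on DDC. All 7 hepatocyte genes had a tested gene-proximal region. Cholangiocyte genes had 2 of 31 regions higher and 2 lower (6.45% each), endothelial genes 6 of 59 higher (10.2%) and 3 lower (5.08%), and lymphocyte genes 0 of 28 higher and 2 lower (7.14%). Among the cholangiocyte, stellate, macrophage and neutrophil genes, no tested gene-proximal region was found at Krt19 (cholangiocytes), Des (stellate cells), Clec4f (resident macrophages) or Ly6g (neutrophils). The part of the stronger-peak number and of other cell types in the AP-1 results below was not tested further.

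The question of the diet comparison is how hepatocyte chromatin at the AP-1 genes differed after DDC feeding. All 8 regions called higher on DDC were distal, at Fosb (3), Fos, Fosl1, Jun, Jund and Atf3 (1 each), with differences of 0.33 to 0.93 log2. The 7 called lower were 2 gene-proximal regions of Atf3 and 5 distal regions at Jund (3), Fos and Fosb (1 each), with differences of −0.93 to −0.28. Over both genotypes 8.25% of the 97 member regions were thus higher, where 8.12% of all tested regions were, and 7.22% were lower, where 4.87% of all were. The share called higher was therefore near that of the genome as a whole. Within the control mice 2 member regions were higher and 1 lower (4.66% and 2.35% of all regions), and within the deleted mice 2 were higher and 1 lower (2.43% and 0.745% of all regions). Leaving out control mouse 2 on DDC took the 15 calls over both genotypes to 9, and leaving out any other single library gave 10 to 15. Of the 15 regions, 8 were called in all 12 fits that left out 1 library, and for the other 7 the libraries are named beside the value.

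**Figure D1:**
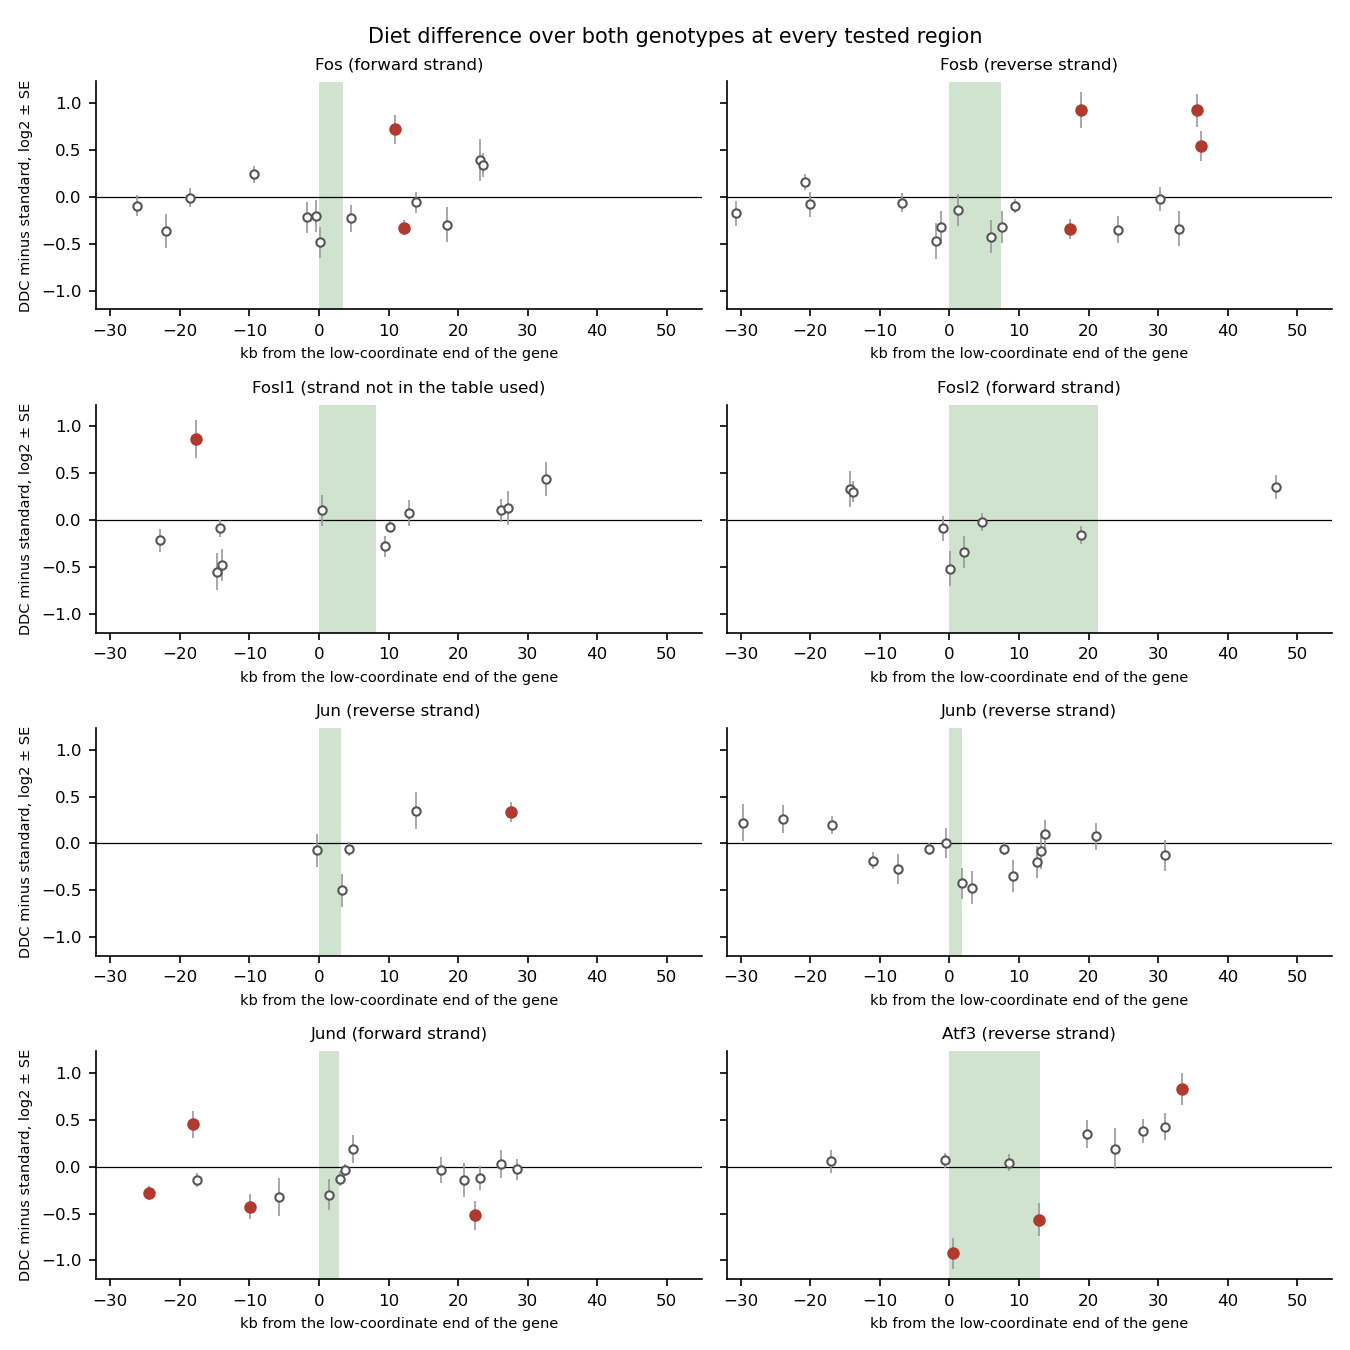
Diet difference (y axis, DDC minus standard over both genotypes, log2, bars are SE) at each of the 97 tested regions against distance in kb from the low-coordinate end of the gene (x axis), with the gene span shaded and called regions filled. The called regions above 0 lie outside the shaded genes, and the 2 called regions inside a gene are those of Atf3, at −0.93 and −0.57.

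The filter on presence bears on these counts. Of the tested regions 10 were kept in no standard-diet library and so passed only through DDC libraries, and 4 of the 8 regions called higher were among them. These 4 lay at Fosb (28.5 kb upstream), Jun, Jund and Atf3. Their standard-diet values are all the lowest value and have no spread. Their SE and adjusted p are therefore no support apart from the filter. Over the 53 member regions kept in all 12 libraries, 2 were higher and 6 lower, and 73.6% lay below 0, against 57.0% of the 61744 such regions genome-wide, of which 6.33% were higher and 6.47% lower. The median difference of these 53 was −0.18, against −0.04 for all 61744. Regions whose 3 DDC libraries lay all above or all below the 3 standard-diet libraries in each genotype numbered 6 higher, all distal, and 11 lower, 7 of them gene-proximal. These are 6.19% and 11.3% of the 97, and 4.64% and 3.15% of all tested regions.

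The FOS proteins are the partners that let JUN bind tightly. At Fos, the immediate early gene that gives the family its name, the start site lay in a region of modest strength (chr12:85473711-85474404). Its percentiles were 60.6, 54.9 and 62.9 in the control mice on the standard diet, 69.5, 64.6 and 64.2 in the deleted mice on the standard diet, 38.3, 49.8 and 34.9 in the control mice on DDC and 45.0, 48.3 and 59.8 in the deleted mice on DDC. Every DDC library lay below every standard-diet library of the same genotype, and the difference was −0.48 ± 0.17 (limma, adjusted p = 0.0580), just short of the threshold. The promoter sequence of Fos printed above, with its pair of TGACG matches, lies mostly in this region, the matches included.

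Downstream of Fos, 2 regions less than 1 kb apart went in opposite directions. The weaker of them (chr12:85484725-85484986, 7.5 kb past the gene) was kept at 0, 14.5 and 0 (control) and 0, 0 and 0 (deleted) on the standard diet, and 47.5, 34.5 and 41.5 (control) and 41.5, 54.0 and 44.2 (deleted) on DDC. It was thus kept in every DDC library and in 1 of 6 standard-diet libraries. The difference was 0.72 ± 0.16 over both genotypes (limma, adjusted p = 0.00379), 0.82 in deleted mice (limma, adjusted p = 0.0435) and 0.62 in controls (limma, adjusted p = 0.0994). In deleted mice alone it was called in 2 of 12 fits that left out 1 library (0.73 to 0.89 log2), namely those without control mice 1 and 3 on DDC.

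The stronger neighbour (chr12:85485623-85486477, 8.3 kb past the gene) ranked among the strongest peaks of every library. Its percentiles were 98.9, 97.8 and 98.2 (control) and 98.9, 97.8 and 98.9 (deleted) on the standard diet, and 93.6, 91.5 and 97.3 (control) and 96.1, 93.5 and 96.4 (deleted) on DDC. All DDC values lay below the standard-diet values of the same genotype, with a difference of −0.33 ± 0.08 (limma, adjusted p = 0.0116). The call was lost without the 2 longest libraries (−0.28, limma, adjusted p = 0.107). The other 11 tested regions at Fos ranged from −0.36 to 0.39 and none was called.

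Fosb encodes a second FOS protein, known for stable truncated forms. It had the most regions called higher of the 8 genes, 3 of 17, all upstream of the gene. The region 11.3 kb upstream (chr7:19321413-19321835) had percentiles of 0, 31.4 and 37.6 in the control mice on the standard diet, 44.9, 45.8 and 52.8 in the deleted mice on the standard diet, 74.0, 74.5 and 70.1 in the control mice on DDC and 58.2, 55.6 and 80.8 in the deleted mice on DDC. Each DDC library exceeded each standard-diet library. The difference was 1.31 ± 0.27 in controls (limma, adjusted p = 0.00504), the largest of any member region in that comparison, 0.55 ± 0.27 in deleted mice (limma, adjusted p = 0.294) and 0.93 ± 0.19 over both (limma, adjusted p = 0.00247). The value in deleted mice was 0.26 to 0.72 with 1 library left out, lowest without deleted mouse 3 on DDC. The test of diet by genotype did not call it, so the difference between genotypes is not shown.

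Farther upstream of Fosb lay 2 regions within 1 kb of each other. The stronger (chr7:19338058-19338449, 27.9 kb upstream) had percentiles of 15.4, 4.12 and 18.5 (control) and 41.0, 37.9 and 22.4 (deleted) on the standard diet, and 53.1, 67.8 and 64.6 (control) and 64.9, 55.6 and 69.8 (deleted) on DDC. The groups did not overlap, and the difference was 1.06 ± 0.25 in controls (limma, adjusted p = 0.0121) and 0.92 ± 0.18 over both genotypes (limma, adjusted p = 0.00134). Its deposited fold enrichment was 2.52 to 3.52 on the standard diet and 5.26 to 8.20 on DDC. In controls alone it was called in 10 of 12 fits that left out 1 library (0.96 to 1.21 log2), and not without control mouse 2 on the standard diet and control mouse 2 on DDC. The weaker neighbour (chr7:19338639-19338978) was in none of the 6 standard-diet lists, also before the weakest peaks were left out. On DDC it lay at 27.8, 34.7 and 34.3 in control and 24.0, 58.2 and 7.20 in deleted mice (difference 0.54 ± 0.16, limma, adjusted p = 0.0313). It was called in 5 of 12 fits that left out 1 library (0.39 to 0.64 log2), namely those without control mice 1 and 3 on DDC and deleted mice 1, 2 and 3 on DDC.

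A strong region between them and the gene (chr7:19319571-19320477, 9.5 kb upstream) was lower on DDC, at 96.5, 89.8 and 96.9 (control) and 97.8, 95.5 and 96.0 (deleted) on the standard diet, and 88.1, 81.2 and 91.6 (control) and 93.7, 94.3 and 89.5 (deleted) on DDC. In deleted mice the diets did not overlap, while in controls they did. The difference was −0.34 ± 0.11 (limma, adjusted p = 0.0373), and it was 0.16 when peaks were ranked by −log10 p in place of fold enrichment. It was called in 4 of 12 fits that left out 1 library (−0.42 to −0.28 log2), namely those without control mouse 2 on the standard diet, deleted mouse 2 on the standard diet, control mouse 3 on DDC and deleted mouse 2 on DDC. At the Fosb start site (chr7:19309943-19310616) percentiles were 54.6, 50.1 and 46.2 (control) and 68.2, 56.8 and 55.2 (deleted) on the standard diet, and 39.3, 18.6 and 40.9 (control) and 49.6, 49.0 and 56.9 (deleted) on DDC. The difference there, −0.32 ± 0.17 (limma, adjusted p = 0.227), was not called. The strongest region within 1 kb of Fosb (chr7:19301167-19301789), 0.9 kb past its 3′ end, lay at 59.5, 68.4 and 64.1 (control) and 72.8, 83.9 and 74.0 (deleted) on the standard diet, and 69.0, 42.1 and 64.6 (control) and 67.4, 71.1 and 52.5 (deleted) on DDC. The diets overlapped in controls but not in deleted mice, and the difference of −0.32 ± 0.18 (limma, adjusted p = 0.233) was not called and was −0.20 without control mouse 2 on DDC.

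Fosl1 encodes FRA-1, a FOS protein without the strong activation domain of FOS, known in migrating and injured epithelium. Its single called region (chr19:5429781-5430309) lay 17.4 kb from the gene on the low-coordinate side. It had percentiles of 16.9, 19.5 and 63.5 in the control mice on the standard diet, 54.9, 39.1 and 46.7 in the deleted mice on the standard diet, 67.6, 69.3 and 68.1 in the control mice on DDC and 61.6, 77.8 and 80.5 in the deleted mice on DDC. Control mouse 3 on the standard diet stood above the other 2 of its group, yet below all control DDC mice. The difference was similar in controls (0.86, limma, adjusted p = 0.0721) and deleted mice (0.87, limma, adjusted p = 0.103), and it was called over both (0.87 ± 0.20, limma, adjusted p = 0.00640).

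The window around Fosl1 is crowded, with 7 other coding genes, so a region there need not belong to it. The strongest region within 1 kb of Fosl1 (chr19:5456750-5457756) also lay within 1 kb of Ccdc85b. Its percentiles were 85.8, 90.2 and 84.9 (control) and 84.9, 88.5 and 92.1 (deleted) on the standard diet, and 88.6, 78.5 and 78.8 (control) and 80.3, 80.3 and 82.6 (deleted) on DDC. The difference of −0.28 ± 0.11 (limma, adjusted p = 0.113) was not called. The only tested region overlapping Fosl1 (chr19:5447365-5448939) was kept in all 12 libraries. Its percentiles were 72.2, 71.4 and 81.6 (control) and 66.3, 61.6 and 58.6 (deleted) on the standard diet. On DDC they were 59.3, 71.0 and 78.8 (control) and 83.7, 67.1 and 68.2 (deleted). This region differed by −0.20 in controls, 0.41 in deleted mice and 0.10 over both genotypes, without a call.

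Fosl2 encodes FRA-2, and none of its 8 tested regions was called. The start-site region (chr5:32136297-32136878) had percentiles of 30.3, 33.2 and 46.3 (control) and 55.3, 39.2 and 63.4 (deleted) on the standard diet, and 0, 0.814 and 33.9 (control) and 6.26, 25.5 and 37.2 (deleted) on DDC. It was in all 6 deposited lists of each diet. On DDC it fell below the kept peaks in control mouse 1 (deposited fold enrichment 2.49, −log10 q 4.60) and was among the weakest kept in control mouse 2 and deleted mouse 1, but control mouse 3 on DDC overlapped the standard-diet controls. The difference was −0.52 ± 0.19 (limma, adjusted p = 0.0704). The strongest region of Fosl2, inside the gene (chr5:32154829-32156082), lay at 93.1, 93.1 and 87.6 (control) and 91.1, 95.6 and 91.6 (deleted) on the standard diet, and 90.1, 89.0 and 87.4 (control) and 90.2, 90.1 and 88.5 (deleted) on DDC, with a difference of −0.16 ± 0.09 (limma, adjusted p = 0.284). The 3 distal regions of Fosl2 lay between 0.30 and 0.35, without a call.

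Among the JUN genes, Jun encodes the main activating partner of FOS. The start-site region of Jun (chr4:95051920-95052896) had percentiles of 48.4, 42.7 and 36.4 in the control mice on the standard diet, 61.9, 48.3 and 44.5 in the deleted mice on the standard diet, 0, 4.03 and 24.2 in the control mice on DDC and 32.9, 29.5 and 38.7 in the deleted mice on DDC. In control mice on DDC it was near or below the weakest kept peak in 2 of 3 libraries. The groups did not overlap within either genotype, and the difference was −0.50 ± 0.17 (limma, adjusted p = 0.0607). At the other end of this short gene, the strongest region (chr4:95047970-95049509) showed little difference, at 50.2, 44.3 and 46.3 (control) and 57.2, 38.6 and 53.3 (deleted) on the standard diet, and 47.2, 36.8 and 47.4 (control) and 49.8, 39.0 and 52.1 (deleted) on DDC (−0.07 ± 0.17, limma, adjusted p = 0.810).

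A distal region of Jun was called higher (chr4:95076379-95076775, 24.2 kb upstream). It was kept in no standard-diet library, and on DDC it lay at 24.5, 23.2 and 38.5 in control and 13.6, 21.1 and 0 in deleted mice. It was a weak peak, with a deposited −log10 q of 0.545 to 2.96 on DDC. All 6 deposited DDC lists and 1 of the 6 standard-diet lists held it, and in deleted mouse 3 on DDC it was too weak to be kept. The difference of 0.33 ± 0.11 (limma, adjusted p = 0.0460) was called in 3 of 12 fits that left out 1 library (0.29 to 0.38 log2), namely those without control mice 1 and 2 on DDC and deleted mouse 3 on DDC.

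Junb encodes a JUN protein that can oppose Jun, and none of its 16 tested regions was called. The start-site region (chr8:84978364-84978975) had percentiles of 30.9, 47.7 and 36.5 (control) and 45.7, 42.0 and 48.6 (deleted) on the standard diet, and 27.6, 0 and 25.2 (control) and 22.0, 12.8 and 22.3 (deleted) on DDC. Every DDC value lay below every standard-diet value, with a difference of −0.42 ± 0.17 (limma, adjusted p = 0.0986). The region 0.9 kb upstream of the gene (chr8:84979673-84980562), the strongest near it, lay at 50.8, 53.8 and 56.7 (control) and 70.1, 54.0 and 68.3 (deleted) on the standard diet, and 40.8, 26.8 and 47.4 (control) and 48.9, 42.7 and 45.2 (deleted) on DDC. It likewise showed no overlap between diets within a genotype, and its difference was −0.47 ± 0.17 (limma, adjusted p = 0.0769). Of the 13 distal regions of Junb, 11 lay within 1 kb of another coding gene, and these 13 differed by −0.35 to 0.26.

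Jund encodes the JUN protein that is present in resting cells. It had the most regions called lower, 3 of 15. Farthest upstream, a very strong region that lay within 1 kb of Lsm4 (chr8:70672734-70673998, 23.7 kb from Jund) had percentiles of 97.8, 98.4 and 98.6 (control) and 98.7, 96.7 and 96.5 (deleted) on the standard diet, and 94.8, 93.1 and 95.1 (control) and 94.3, 94.2 and 95.7 (deleted) on DDC. All DDC values lay below the standard-diet values, by −0.28 ± 0.08 (limma, adjusted p = 0.0182). The region 9.4 kb upstream (chr8:70687282-70688369) lay at 87.8, 87.9 and 80.0 (control) and 82.3, 86.0 and 84.9 (deleted) on the standard diet, and 76.1, 69.8 and 78.0 (control) and 80.8, 64.8 and 77.5 (deleted) on DDC, a difference of −0.43 ± 0.13 (limma, adjusted p = 0.0359). It was called in 5 of 12 fits that left out 1 library (−0.49 to −0.34 log2), namely those without control mouse 3 on the standard diet, deleted mouse 1 on the standard diet, control mouse 3 on DDC and deleted mice 1 and 3 on DDC.

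The third lower region, 19.3 kb past Jund and within 1 kb of the predicted gene Gm3336 (chr8:70719929-70720391), was too weak to be kept, or among the weakest kept, in every control mouse on DDC, although all 6 deposited lists of each diet held it. Its percentiles were 42.2, 43.3 and 35.4 (control) and 44.5, 37.9 and 33.5 (deleted) on the standard diet, and 0, 3.69 and 0 (control) and 3.29, 12.9 and 27.2 (deleted) on DDC. The diets did not overlap, and the difference was −0.52 ± 0.15 (limma, adjusted p = 0.0293). It was called in 6 of 12 fits that left out 1 library (−0.56 to −0.48 log2), namely those without control mice 1 and 3 on the standard diet, deleted mice 1, 2 and 3 on the standard diet and deleted mouse 3 on DDC. Between these, a weak region 18.0 kb upstream and within 1 kb of Lsm4 (chr8:70679496-70679781) was kept in no standard-diet library and on DDC at 28.4, 29.3 and 34.2 (control) and 47.9, 25.5 and 0 (deleted), a difference of 0.45 ± 0.14 (limma, adjusted p = 0.0399). It was called in 2 of 12 fits that left out 1 library (0.34 to 0.56 log2), namely those without control mouse 1 on DDC and deleted mouse 3 on DDC. This weak region ends just before the strongest tested member region (chr8:70679796-70680651), which was not called. On the standard diet the latter lay at 98.9 to 99.5 (control) and 97.9 to 99.6 (deleted). On DDC it lay at 96.8 to 97.9 (control) and 98.2 to 99.0 (deleted). Whether the 2 are parts of 1 open site was not tested.

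No tested region covered the start site of Jund. The strongest region inside the gene (chr8:70698394-70699933) had percentiles of 41.8, 41.4 and 51.0 (control) and 41.9, 47.3 and 45.8 (deleted) on the standard diet, and 31.8, 27.3 and 36.5 (control) and 34.8, 26.1 and 22.2 (deleted) on DDC. Every DDC value was below every standard-diet value, but the difference of −0.30 ± 0.16 (limma, adjusted p = 0.237) was not called.

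Atf3 encodes a stress-induced factor that pairs with JUN proteins and can repress transcription. It held both the member region that was called with the lowest adjusted p and a region kept in all 6 DDC libraries and in no standard-diet library. The region at the 3′ end of the gene (chr1:191170383-191171162) had percentiles of 77.1, 73.4 and 68.7 in the control mice on the standard diet, 77.7, 78.1 and 77.2 in the deleted mice on the standard diet, 50.9, 50.3 and 40.4 in the control mice on DDC and 57.4, 54.8 and 27.1 in the deleted mice on DDC. All 6 DDC mice lay below all 6 standard-diet mice. The difference was −0.85 ± 0.23 in controls (limma, adjusted p = 0.0290), −1.001 ± 0.23 in deleted mice (limma, adjusted p = 0.0195) and −0.93 ± 0.16 over both (limma, adjusted p = 0.000658). In controls alone it was called in 7 of 12 fits that left out 1 library (−0.93 to −0.76 log2), and not without control mice 1 and 2 on the standard diet and control mice 1, 2 and 3 on DDC, and in deleted mice alone it was called in 10 of 12 fits that left out 1 library (−1.13 to −0.78 log2), and not without deleted mouse 3 on the standard diet and deleted mouse 3 on DDC. The deposited fold enrichment was 6.70 to 9.08 on the standard diet and 3.36 to 5.46 on DDC. It was also the region that stayed called with the number of stronger peaks as a covariate (−1.04, limma, adjusted p = 0.0400).

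At the Atf3 start site (chr1:191182341-191183984), whose sequence is printed above, percentiles were 62.6, 55.6 and 66.5 (control) and 78.9, 60.5 and 61.4 (deleted) on the standard diet, and 45.1, 47.0 and 46.7 (control) and 53.3, 43.7 and 37.6 (deleted) on DDC. The diets did not overlap in either genotype, with a difference of −0.57 ± 0.18 (limma, adjusted p = 0.0366). This region was called in 4 of 12 fits that left out 1 library (−0.63 to −0.45 log2), namely those without control mouse 2 on the standard diet, deleted mice 2 and 3 on the standard diet and deleted mouse 1 on DDC.

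Of the 6 tested distal regions of Atf3, 5 lie upstream. The farthest of these (chr1:191203555-191203846, 20.2 kb upstream) was in none of the 6 standard-diet lists, and on DDC it lay at 49.4, 38.5 and 44.8 in control and 39.2, 63.5 and 41.1 in deleted mice. The deposited fold enrichment on DDC was 3.86 to 6.54, with a −log10 q of 2.74 to 8.32, so it was a weak but repeated peak. The difference was 0.83 ± 0.17 over both genotypes (limma, adjusted p = 0.00206), 0.88 in deleted mice (limma, adjusted p = 0.0421) and 0.77 in controls (limma, adjusted p = 0.0512). The region passed the filter only through DDC libraries, and its standard-diet values are all the lowest value, so these tests rest on both. In deleted mice alone it was called in 3 of 12 fits that left out 1 library (0.66 to 1.00 log2), namely those without control mice 1 and 3 on DDC and deleted mouse 1 on DDC. The 2 regions next to it, 17.7 kb and 14.6 kb upstream, were just short of the threshold at 0.43 ± 0.14 (limma, adjusted p = 0.0502) and 0.38 ± 0.13 (limma, adjusted p = 0.0546). At Atf3 4 to 8 regions were kept per mouse on the standard diet and 7 to 10 on DDC. At Jund the numbers were 13 to 14 (control) and 11 to 14 (deleted) on the standard diet. On DDC they were 7 to 12 (control) and 10 to 14 (deleted). All member genes together had 82 to 86 (control) and 69 to 81 (deleted) on the standard diet. On DDC they had 76 to 91 (control) and 83 to 89 (deleted).

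**Figure D2:**
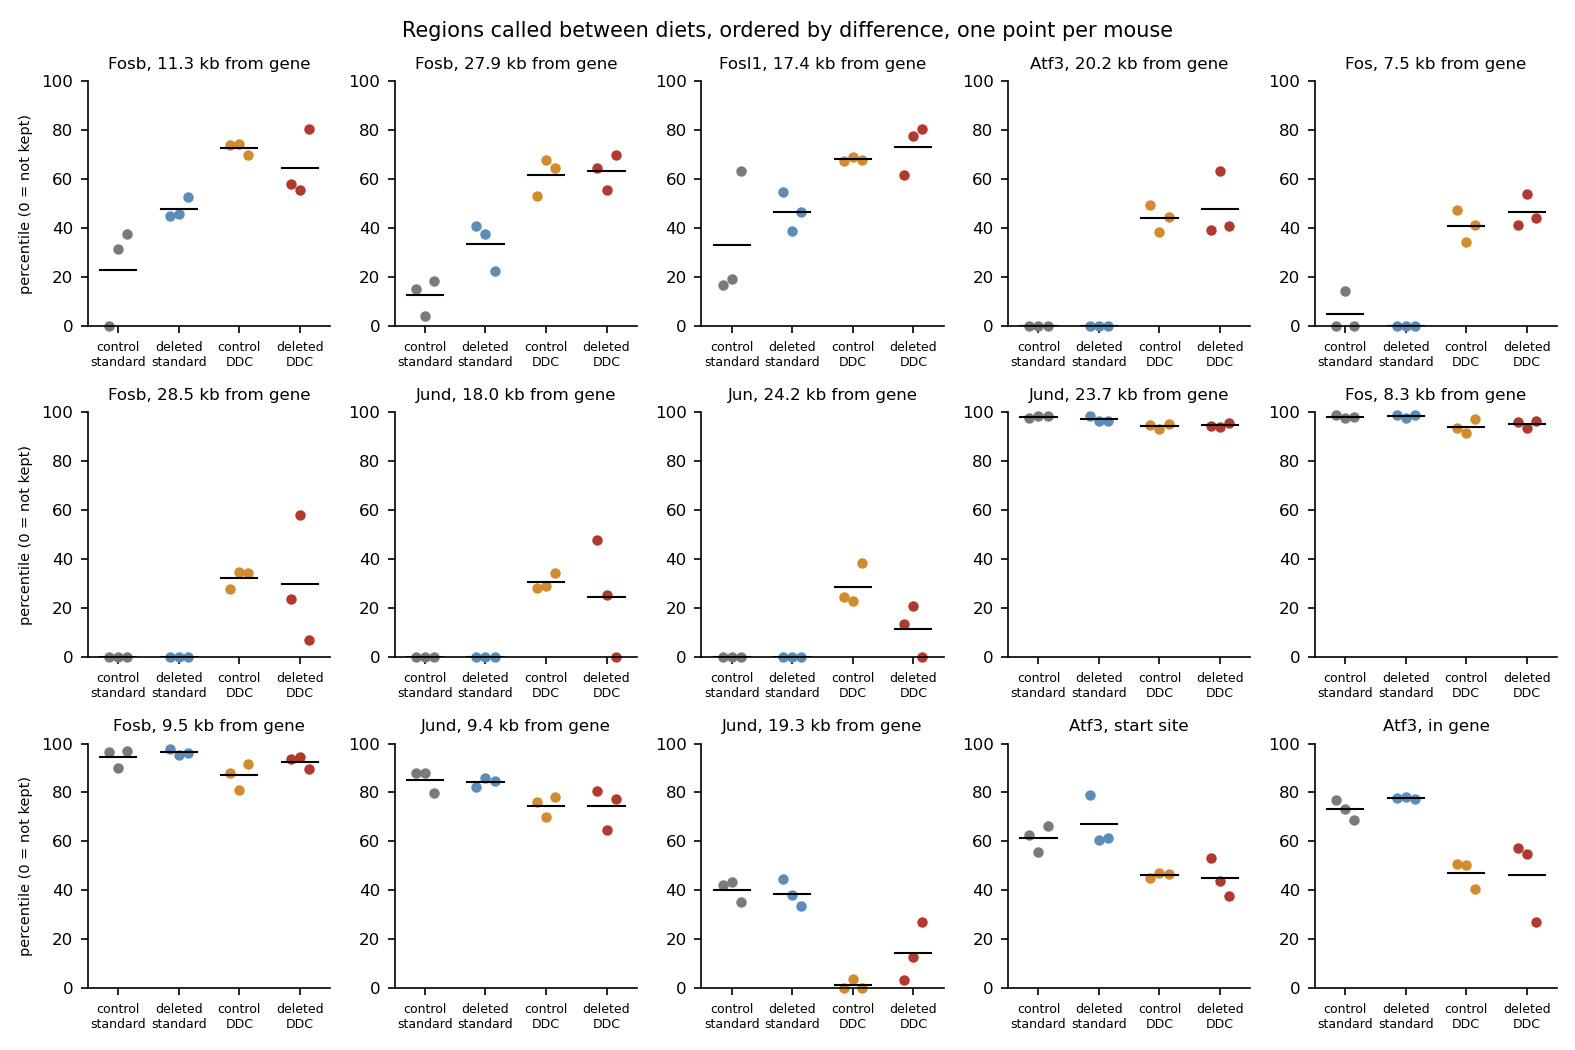
Percentile within the library (y axis, 100 is the strongest kept peak, 0 is not kept) of the 15 member regions called between diets, by group on the x axis, with 1 point per mouse and a line at the group mean. Panels run from the largest rise (Fosb, 0.93 log2) to the largest fall (Atf3, −0.93 log2), and 4 of them have all 6 standard-diet points at 0.

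Set side by side, the start-site regions of Fos, Fosb, Fosl2, Jun, Junb and Atf3 all lay lower on DDC in both genotypes. Their median difference was −0.49 over both genotypes, and 1 of the 6 (Atf3) was called. Of all 11934 tested regions that cover a start site, 64.8% lay below 0 with a median of −0.06, and 3.19% were called higher and 3.84% lower. These sets differ in strength, since 9944 of the 11934 had a mean percentile of 50 or more, against 2 of the 6 members. Differences spread most widely at middle strength and less at both ends. Among all tested regions, 5% to 95% ran from −0.24 to 0.27 at percentiles 0 to 10. The same range was −0.70 to 1.09 at 30 to 40 and −0.28 to 0.31 at 90 to 100. Over the 27 gene-proximal member regions 23 lay below 0 (median −0.23), and over the 70 distal regions 38 did (median −0.03). Of all tested regions 50.1% lay below 0. This share was not computed for gene-proximal and distal regions genome-wide, so the contrast cannot be called particular to these genes. The deposited −log10 q did not fall at each of the 6 start sites. At the Fos start site the fold enrichment was 5.06 to 6.31 on the standard diet and 3.69 to 5.51 on DDC, while the −log10 q was 17.0 to 45.4 and 21.6 to 63.5. At the Jun start site the −log10 q was 22.9 to 50.8 on the standard diet and 17.4 to 36.3 on DDC. When peaks were ranked by −log10 p, an alternative chosen after seeing the data, the 6 start-site differences were all still below 0, from −0.81 (Fosl2) to −0.09 (Fosb). With the number of stronger peaks as a covariate they ranged from −0.44 (Fos) to −0.03 (Fosb), none called.

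**Figure D3:**
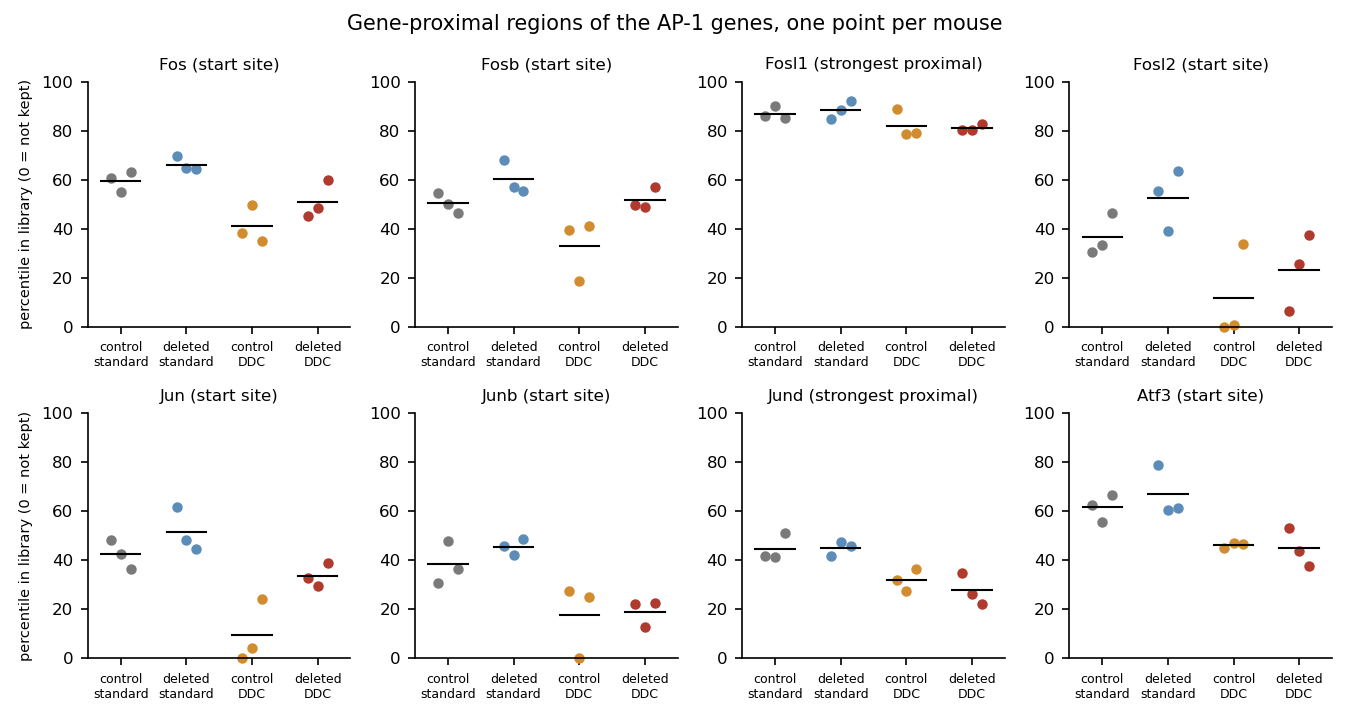
Percentile within the library (y axis, 100 is the strongest kept peak, 0 is not kept) of the start-site region of 6 genes and of the strongest gene-proximal region of Fosl1 and Jund, by group on the x axis, with 1 point per mouse and a line at the group mean. In all 8 panels the mean of the DDC mice lies below that of the standard-diet mice of the same genotype. The tested region overlapping Fosl1 is not shown, and on DDC it lay higher in deleted mice and lower in controls.

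**Figure D4:**
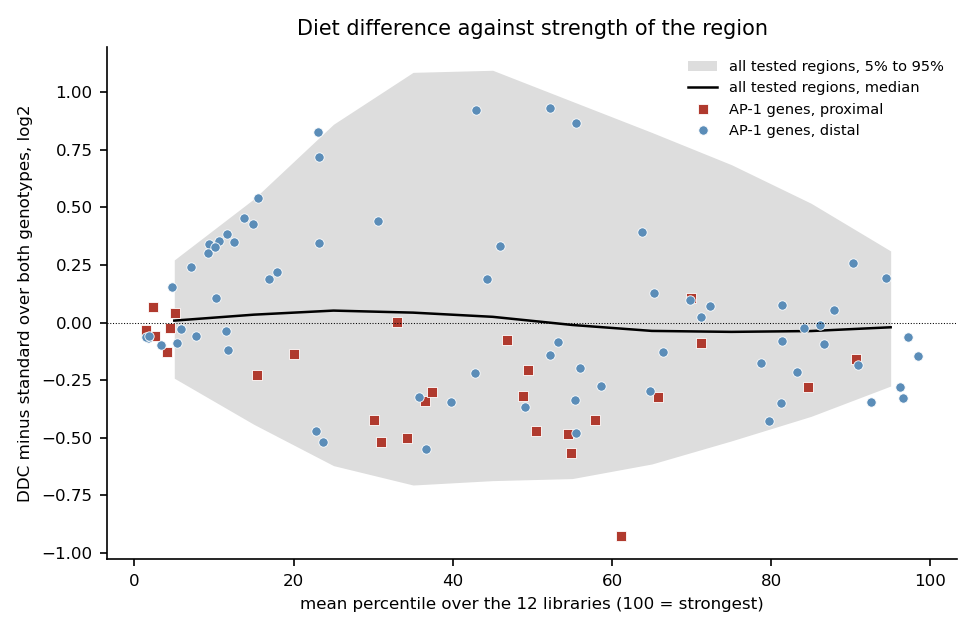
Diet difference of the 97 member regions (y axis, DDC minus standard over both genotypes, log2) against their mean percentile over the 12 libraries (x axis), over the median and the range from 5% to 95% of all 138620 tested regions in bins of 10 percentiles. Of the 27 gene-proximal squares 23 lie below 0, and among them the Atf3 region at −0.93 lies below the grey range. The strongest distal regions called lower at Fos, Fosb and Jund also lie below the 5% value of their bin. The share of gene-proximal regions below 0 genome-wide was not computed.

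In the genotype comparisons, which ask what Fbxl5 loss does at these loci, no member region was called. On the standard diet 0 of 97 had an unadjusted p under 0.05 (limma, lowest adjusted p = 0.630), and genome-wide 0.000721% of regions were called. On DDC 5 of 97 had an unadjusted p under 0.05 (limma, lowest adjusted p = 0.368) and 0.0% of all regions were called. For diet by genotype these figures were 2 of 97 (limma, lowest adjusted p = 0.847) and 0.0%. The counts of 0 held under every alternative run. Of these regions, chosen here after their values were seen, the lowest p belonged to a strong region 25.8 kb upstream of Fos (chr12:85447394-85448099). It lay at 88.4, 88.4 and 87.3 (control) and 83.7, 92.3 and 87.0 (deleted) on the standard diet, and 78.4, 74.8 and 83.6 (control) and 88.7, 94.6 and 92.2 (deleted) on DDC. The deleted DDC mice stood above the control DDC mice without overlap, by 0.61 ± 0.15 log2, and this did not pass adjustment.

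Partners, regulators and targets of AP-1 gave the setting for these values. Of 98 regions at 10 dimer partners (other ATF, MAF and JDP genes) 5 were higher (5.10%) and 4 lower (4.08%) on DDC, with a median of −0.00. Both shares lay below those of all tested regions (8.12% and 4.87%). Jdp2, a repressing partner of JUN, had a region inside the gene kept in 1 of 6 standard-diet and 6 of 6 DDC libraries (1.11 ± 0.17, limma, adjusted p = 0.000177). Maff, a small MAF protein, rose at a distal region (1.35 ± 0.18, limma, adjusted p = 3.4e-05) and fell at another inside it (−0.59 ± 0.19, limma, adjusted p = 0.0383). Of 206 regions at 12 upstream kinases and factors 9 were higher (4.37%) and 5 lower (2.43%), again below the shares of all regions (median −0.04). Among them Mapk8, which encodes the JUN kinase JNK1, had 3 regions higher, while Map3k5, a stress kinase above JNK, had 4 lower and 1 higher.

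The phosphatases that end MAP kinase signals had 6 of 61 regions higher (9.84%) and 3 lower (4.92%), near the shares of all regions (median 0.04). Dusp1, itself an immediate early gene, had 3 distal regions higher, of which the nearest was kept in 0 of 6 standard-diet and 6 of 6 DDC libraries (1.05 ± 0.17, limma, adjusted p = 0.000211). That nearest region passed the filter only through DDC libraries. Dusp4 had 1 higher (1.33 ± 0.19, limma, adjusted p = 7.3e-05), and Dusp6, the ERK phosphatase, had 2 lower. Among 10 genes known as AP-1 targets 13 of 86 regions were higher (15.1%) and 4 lower (4.65%, median 0.11). Of all tested regions 8.12% were higher and 4.87% lower. At the marker genes of the 7 cell types the share higher ran from 0% (lymphocyte) to 20.5% (macrophage). The part of other cell types in the values at these targets was not tested. Timp1, the inhibitor of matrix metalloproteinases, was higher at 2 regions, the stronger by 1.21 ± 0.13 (limma, adjusted p = 3.4e-06), with percentiles of 38.0 to 68.5 on the standard diet and 81.9 to 89.8 on DDC. Cd44, an adhesion receptor, had 3 regions higher by 1.19 to 1.23, and Plaur, the urokinase receptor, had 4. Spp1 (osteopontin) went the other way inside the gene (−0.80 ± 0.17, limma, adjusted p = 0.00377). These lists are small, share the diets' samples with the member values and, like the members, were chosen with earlier results of these data known.

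The gene-proximal member region that varied most over the 12 libraries was the one at the 3′ end of Atf3 (SD 0.52 log2). Among 40761 other gene-proximal regions kept in all 12 libraries, those with the highest Pearson correlation to it were at Shq1 (r = 0.960), Iqch (0.956), Txndc5 (0.956), Inf2 (0.949) and Rnf144b (0.948). These correlations are a description over 12 libraries that share the diet difference, and the 5 regions differed between diets by −0.98 to −0.58 log2.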

How the data were processed

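ATAC-seq of hepatocytes from 12 mice was deposited as 1 peak list per library (mm10). Per the submitters' processing notes MACS2, Bowtie2, fastp, Picard, SAMtools, deepTools and bedtools were used. Versions, settings and any shift of reads for the Tn5 enzyme: not given in the sources used here. In the deposited lists, fold enrichment is a ratio within the library, and −log10 p, −log10 q and the score are the caller's. Read counts are not in the lists, so depth is unknown and no interval from counting can be given.

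Only peaks of the autosomes, X and Y entered. The strongest 137034 by fold enrichment were kept per library (the shortest list) and merged where they overlapped by 1 bp or more. Each region's rank was mapped to the mean log2 distribution of the deposited fold enrichment, and a missing region took the lowest value, log2 1.27. limma 3.58.1 (R 4.3.3; eBayes with trend and robust) was fitted on 4 group means over 12 libraries without covariates. On simulated data for the diet comparison in controls (138620 regions) it recovered 33.0% of 100 regions changed by 1 log2 and 85.0% of 100 changed by 2. Far fewer regions were changed there than were called in the real data, and absent peaks were not simulated. These shares therefore do not give the power of the real comparison. Changes can be missed at 3 mice a group, and how many is not known. Groups follow the labels. Gene spans are RefSeq GRCm38.p6, matched by symbol for 8 of 8 genes. Whether a region is exonic or intronic was not analysed here. Ranks are relative, so a shift shared by the whole genome leaves no trace.

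Values are given for each gene's strongest gene-proximal region, its start-site region and every called region. The lists comprise dimer partners, upstream kinases, phosphatases, AP-1 targets and markers of 7 cell types. The members and lists were chosen with earlier results of these data known. The labels do not say whether replicate numbers pair mice or mark a batch, and the main fit did not use them. After removal of group means, same-numbered libraries correlated at −0.024 to 0.057 (18 pairs, mean 0.014). For libraries of other groups with other numbers the mean was −0.0068. Alternatives changed the peaks kept, the window, the filter, the scale, the merging, the fit and the libraries.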

Additional observations from a re-analysis of the deposited data

How the results depend on the processing

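The alternatives gave 1251 further values for the 56 differences of named regions, of which 1032 kept the direction and the side of the threshold, 159 lost a call, 49 gained one and 11 turned direction. The 15 regions called over both genotypes (8 higher, 7 lower) became 6 within 10 kb of a gene (1 and 5), 21 within 50 kb (12 and 9), 16 with all deposited peaks (13 and 3), 12 with a −log10 q of at least 2 (3 and 9), 6 without the filter on presence (5 and 1), 11 among regions in all 12 libraries (2 and 9), 16 on the percentile scale (9 and 7), 11 with 50% reciprocal overlap (5 and 6), 21 without trend and robust settings (9 and 12) and 6 without the 2 longest lists (5 and 1). The alternatives with fewer libraries or regions test less, and the cause of the other shifts was not tested. With ranks by −log10 p, 21 were called (12 and 9), and with the number of stronger peaks as a covariate 1 (0 and 1); both alternatives were chosen after seeing the data.

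The 3 regions called in controls became 1 (10 kb, no filter, or the covariate), 8 (50 kb), 11 (all peaks, or −log10 p), 5 (reciprocal overlap) and 6 (no trend or robust). The 3 called in deleted mice became 5 (50 kb), 0 (no filter, the 2 longest lists left out, or the covariate), 1 (reciprocal overlap) and 6 (−log10 p). Leaving out 1 library gave 9 to 15 calls over both genotypes, 1 to 5 in controls (1 without control mouse 2 on DDC, 5 without deleted mouse 2 on DDC) and 0 to 3 in deleted mice (0 without deleted mouse 3 of either diet, 1 without any control mouse on the standard diet, deleted mouse 1 on the standard diet, or control or deleted mouse 2 on DDC). All genotype and diet-by-genotype counts stayed at 0. The replicate block gave 3, 1 and 14 calls in controls, deleted mice and both. Among libraries of other groups, 8 of 12 libraries correlated best with one of their own number, and what the numbers mark is not known.

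With ranks by −log10 p the direction turned at the strongest gene-proximal regions of Fosb (0.18), Fosl2 (0.071) and Jun (0.33) and at the Fosb region 9.5 kb upstream (0.14 in controls, 0.19 in deleted mice, 0.16 over both). The Jun region also turned without the 2 longest lists (0.067) and with the covariate (0.27). With 50% reciprocal overlap the Fosb region 9.5 kb upstream (0.88, deleted mice), the strongest Junb region (0.042, both) and the Jund region 9.4 kb upstream (0.28, deleted mice) turned; none of these reversed values was called. Read depth is unknown, so weak peaks near the end of a list limit what absence shows.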
